A study of Bos indicus with 5 samples.

Results

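The genes described here are HGF, HGFAC, MET and MST1R, the growth factor, activating protease and receptors of the hepatocyte growth factor family, in the ampulla of the bovine oviduct. They were taken by gene symbol from the deposited ampulla table, where each of the 4 symbols had 1 entry among 24616 genes. The ampulla is the wide section of the oviduct beside the ovary, and the tissue sequenced covered the whole wall, with mucosa, stroma, muscle and serosa. All 5 animals were multiparous, non-lactating Nelore (Bos indicus) cows. Every cow was presynchronised with cloprostenol (0.5 mg), a prostaglandin F2α analog, and buserelin (1 μg), a GnRH agonist, given 7 days apart, and on day -10 received an intravaginal progesterone device (1 g) and estradiol benzoate (2 mg). The 2 LF/LCL cows (large follicle, large corpus luteum) also had the prostaglandin analog on that day, and their device came out 42 h before the ovulatory GnRH agonist. In the 3 SF/SCL cows (small follicle, small corpus luteum) it came out 30 h before. In both groups the prostaglandin analog was given at device removal and again 6 h later, and tissue was taken on day 4. The animals sequenced were those ranked highest in LF/LCL and lowest in SF/SCL by follicle, corpus luteum and steroid measures, so they stand for the ends of each group, and 1 LF/LCL library was dropped by the authors for few reads.

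HGF is secreted mainly by mesenchymal cells as a single inactive chain, and proteases such as HGFAC, matriptase (ST14) and hepsin (HPN) cut it into the active form. The active factor binds MET, a receptor tyrosine kinase carried mostly by epithelial cells, and evokes growth, scattering and tubule formation. MST1R (also called RON) is the closest relative of MET, and its ligand is MST1, a relative of HGF made chiefly by the liver. In the oviduct these genes are of interest as a route by which stroma can signal to the epithelium that meets the gametes and the early embryo.

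The libraries held 13418278 to 19592174 reads assigned to genes, and values below are normalized read counts, that is reads divided by a size factor of the library. Markers of the tissue layers were present in every library, with a mean of 133230 normalized reads for OVGP1, the oviductal glycoprotein, and 10480 for FOXJ1, the regulator of motile cilia. The makeup of the samples was uneven. The summed smooth muscle markers (10 of 10 with a higher mean log2 value in LF/LCL) ran from 58729 to 116302 in LF/LCL and from 16028 to 39533 in SF/SCL. The summed ciliated cell markers (12 of 12 tested with a higher mean log2 value in SF/SCL) ran from 44353 to 51494 and from 60735 to 66936. The summed proliferation markers (10 of 10 with a higher mean log2 value in LF/LCL) ran from 1649 to 2167 and from 1408 to 1480. The summed immune cell markers (10 of 12 higher in LF/LCL, median log2 fold change 0.75) overlapped, with 5097 to 6243 and 3207 to 5143. The summed epithelial markers (7 of 12 with a higher mean log2 value in LF/LCL and 5 in SF/SCL) differed less. They ran from 45897 to 46747 in LF/LCL and from 40648 to 43652 in SF/SCL, also without overlap. No marker of these 5 lists was at 0 in all libraries.

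The first question was whether the abundance of the 4 transcripts differed between cows with a large and a small follicle. None of the 4 differed by the test, and the ranges of the groups overlapped for each. The test was limma on log2(value + 1), with Benjamini-Hochberg adjustment across the whole set of tested genes, and a fold change is LF/LCL over SF/SCL. Of 15815 genes tested with limma, 0 (0%) had an adjusted p under 0.05, while 1819 (11.5%) had an unadjusted p under 0.05. Of the 4 members 0 were in that second class. DESeq2 called 2.91% of genes and the edgeR exact test 2.12%, and each called 0 of the 4. The paper, with DESeq, also reported genes differing between the groups in these ampulla libraries, so the number called depended on the tool. Groups without overlap occurred in 30.1% of genes tested (LF/LCL above in 15%, SF/SCL above in 15.1%) and in 0 of the 4 members.

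HGF, the ligand, had 86.8 normalized reads in LF/LCL replicate 1 and 25.2 in replicate 2. In SF/SCL it had 61.3, 29.5 and 63.3 in replicates 1, 2 and 3. One cow of LF/LCL therefore held the highest value of all and the other the lowest, 3.45 times apart, and SF/SCL replicate 2 stood near the lower of them. The LF/LCL mean was 56.0 ± 43.6 (SD, n = 2) and the SF/SCL mean 51.4 ± 19.0 (SD, n = 3). On the log2(value + 1) scale the difference was -0.05 ± 0.63 (SE), with a 95% interval from -1.60 to 1.49 and a limma adjusted p of 0.987. That interval spans a fold of 0.331 to 2.82, so differences between those bounds remain compatible with the values at this depth and number of cows.

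The reads behind HGF were few, with 74 and 26 in LF/LCL against 59, 38 and 59 in SF/SCL. Exact Poisson 95% intervals, which cover counting error only, ran from 68.1 to 109 normalized reads in LF/LCL replicate 1 and from 16.4 to 36.9 in replicate 2. Those intervals did not meet, nor did that of SF/SCL replicate 2 (20.9 to 40.5) meet those of SF/SCL replicates 1 (46.7 to 79.1) and 3 (48.2 to 81.7). The spread of HGF between cows of one group was thus wider than counting error. Its within-group SD was 0.87 on the log2 scale, larger than in 84.4% of the 2132 tested genes whose mean lay within 2-fold of its own, where the median was 0.45.

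HGFAC, the serum protease that activates HGF, had 15.2 normalized reads in LF/LCL replicate 1 and 31.9 in replicate 2. In SF/SCL it had 31.2, 24.1 and 32.2. The library with the most HGF was the one with the least HGFAC, and the other 4 lay close together. Counting error was wide, with 13 to 33 reads in a library, and the Poisson intervals of all 5 libraries overlapped, from 8.12 to 26.1 in the lowest and from 21.7 to 46.0 in the highest. The means were 23.6 ± 11.8 (SD, n = 2) and 29.2 ± 4.42 (SD, n = 3). The log2 fold change was -0.37 ± 0.48 (SE), with a 95% interval from -1.53 to 0.79 and a limma adjusted p of 0.82. HGFAC is known chiefly as a liver product, and the 2 most abundant of the 8 hepatocyte markers measured were APOA1, an apolipoprotein, with a mean of 393.5 normalized reads, and ALB, albumin, with 62.4. These 2 had log2 fold changes of opposite sign, -0.49 for APOA1 (limma adjusted p 0.718) and 2.49 for ALB (limma adjusted p 0.306). The summed level of the list was 404 to 939 in LF/LCL and 459 to 875 in SF/SCL, and none was at 0 in all libraries.

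MET, the HGF receptor, was covered by 373 to 653 reads a library and was the most precisely measured of the 4. The LF/LCL cows had 562 and 471 normalized reads, and the SF/SCL cows 619, 507.5 and 400.3. Both ends of the range were cows of SF/SCL, and both LF/LCL cows lay between them. The means were 516.6 ± 63.9 (SD, n = 2) and 509 ± 109 (SD, n = 3). The log2 fold change was 0.04 ± 0.21 (SE), with a 95% interval from -0.47 to 0.55 and a limma adjusted p of 0.967. In folds the interval ran from 0.721 to 1.46, so that larger differences lay outside it in either direction. Within SF/SCL the cows differed beyond counting error, since the Poisson interval was 570 to 670 in replicate 1 and 361 to 443 in replicate 3. The paper also measured MET by quantitative PCR in a larger set of cows. There it reported higher expression in LF/LCL than in SF/SCL, as a group effect over ampulla and isthmus together. For the ampulla alone its PCR difference was also toward LF/LCL, and its size lay within the 95% interval given above. The libraries here did not show that difference, but their interval does not exclude it.

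MST1R, the sister receptor, had 19.9 and 24.2 normalized reads in LF/LCL against 27.0, 14.0 and 11.8 in SF/SCL. SF/SCL replicate 1 was the highest library and replicates 2 and 3 were the lowest. These values rest on 11 to 26 reads, and the Poisson intervals of all 5 libraries overlapped. The means were 22.1 ± 3.01 (SD, n = 2) and 17.6 ± 8.23 (SD, n = 3). The log2 fold change was 0.39 ± 0.53 (SE), with a 95% interval from -0.90 to 1.68 and a limma adjusted p of 0.83.

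**Figure D1:**
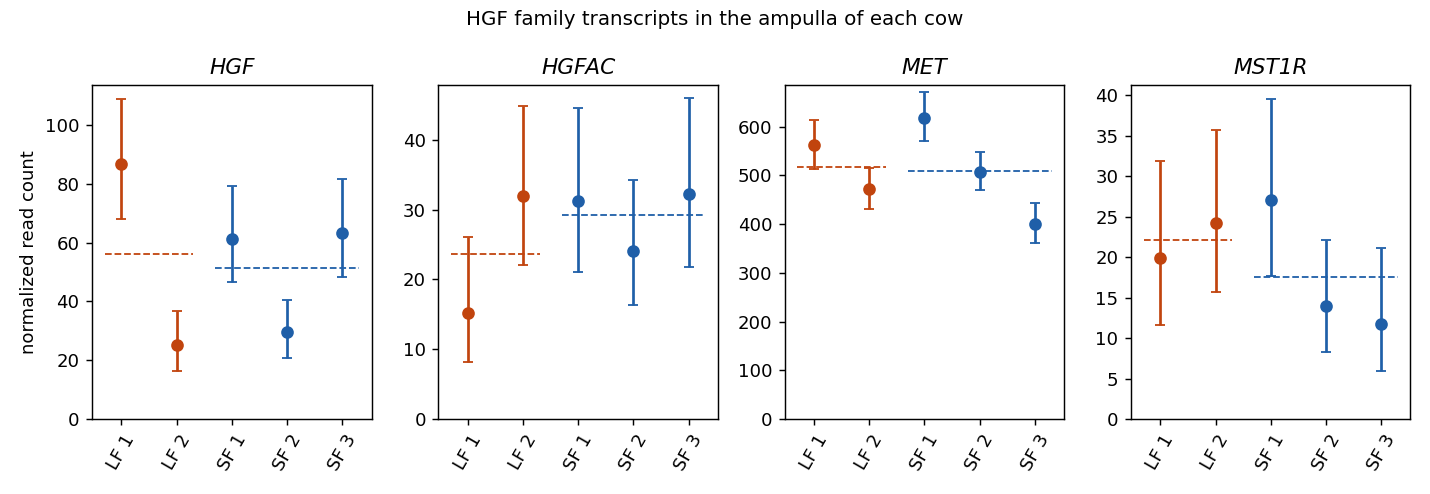
Normalized read count (y axis, starting at 0) of HGF, HGFAC, MET and MST1R in each library (x axis; LF is LF/LCL, SF is SF/SCL). Points are single cows, bars are exact Poisson 95% intervals and dashed lines are group means. HGF spans 25.2 to 86.8 within LF/LCL alone, and in every panel the groups overlap.

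MST1, the ligand of MST1R, was the other ligand measured. It had 175 and 226 normalized reads in LF/LCL against 201, 198 and 289 in SF/SCL, with a log2 fold change of -0.18 ± 0.25 (SE) and a limma adjusted p of 0.831. Its groups overlapped as well. Levels of different genes are not compared here, because reads grow with transcript length and no transcript lengths were used.

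Ligand and receptor were next set against each other within each library, which removes the library's scaling. In LF/LCL the difference log2 HGF minus log2 MET was -2.68 and -4.17, and in SF/SCL it was -3.31, -4.06 and -2.64. Its absolute size has no meaning without transcript lengths, but its spread of 1.53 between libraries can be read. The groups had nearly the same mean, -3.43 ± 1.06 (SD, n = 2) and -3.34 ± 0.71 (SD, n = 3), and an exact permutation test of the group labels gave p = 0.8 (two-sided, with 0.2 the smallest it allows). On its own, the ligand HGF spanned 1.75 on the log2 scale over the 5 libraries and the receptor MET 0.63.

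Because HGF is a product of mesenchymal cells, it was set beside stromal markers. The 10 stromal fibroblast markers, of which DCN (decorin) and COL3A1 (a fibrillar collagen) were the most abundant, had summed levels of 89032 and 36098 for LF/LCL, against 41397, 23514 and 51677 for SF/SCL, and none was at 0 in all libraries. LF/LCL replicate 1 was highest in both HGF and these markers. The 2 libraries with the least HGF, LF/LCL replicate 2 and SF/SCL replicate 2, were also the 2 with the lowest summed stromal markers, in the opposite order. This match was not particular to the stromal list. The same 2 libraries were lowest in the summed endothelial markers, with 3895 and 4867 against 6185 to 7759 in the others. They were also lowest in the summed hepatocyte markers, with 404 and 459 against 544 to 939. In the summed smooth muscle and immune cell markers they were not the lowest pair. In bulk tissue fewer cells of a type and less RNA per cell cannot be told apart, and the part of stromal content in the HGF values was not tested.

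Relative to the mean log2 level of the stromal markers, HGF was at -5.81 and -6.30 in LF/LCL against -5.35, -5.42 and -5.64 in SF/SCL. On this scale both LF/LCL cows lay below the 3 SF/SCL cows. The means were -6.05 ± 0.35 (SD, n = 2) and -5.47 ± 0.16 (SD, n = 3), a difference of -0.58, and the exact permutation test gave p = 0.2 (two-sided), which is the smallest that 2 cows against 3 allow. This permutation test thus cannot pass the threshold of 0.05, and no other test of this difference was run. HGF itself differed by -0.05 between the groups, while 9 of the 10 stromal markers had a positive log2 fold change (median 0.53), so the difference lay in the markers more than in HGF.

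MET was likewise set against the 12 epithelial markers, led by EPCAM and KRT8, an adhesion molecule and a keratin of simple epithelia. In LF/LCL the differences of log2 levels were -1.98 and -2.29, and in SF/SCL they were -1.68, -2.11 and -2.35. The ranges overlapped, with means of -2.14 ± 0.22 (SD, n = 2) and -2.05 ± 0.34 (SD, n = 3), and the exact permutation test gave p = 1 (two-sided). Against the ciliated cell markers instead, MET was 0.55 higher in LF/LCL on the log2 scale (exact permutation p = 0.4, two-sided). Those markers were lower in both LF/LCL libraries, and their part in that difference was not tested.

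**Figure D2:**
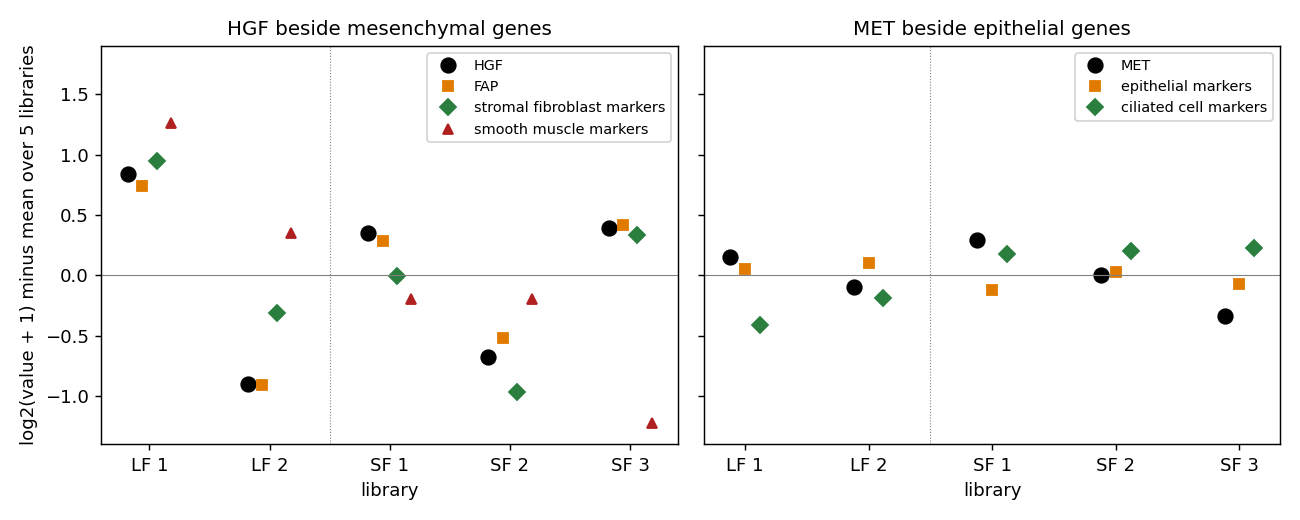
Level of HGF (left) and MET (right) in each library beside marker genes, as log2(value + 1) minus the mean over the 5 libraries (y axis), where a marker list is the mean of its genes and the dotted line separates LF/LCL from SF/SCL. HGF spans 1.75, the stromal fibroblast markers 1.91 and the smooth muscle markers 2.48. MET spans 0.63, the epithelial markers 0.22 and the ciliated cell markers 0.64. FAP, which spans 1.65, is in no marker list and was picked as the profile nearest to HGF in these same libraries.

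Genes whose profile over the 5 libraries was most like that of HGF and of MET were sought among 11951 genes with a symbol and a mean of at least 50 normalized reads. Likeness was the root mean square difference of log2(value + 1) after each gene was centred on its mean, a description over 5 libraries without a test. For HGF the nearest was FAP, a serine protease of activated fibroblasts, at 0.09, where the median over all genes was 0.70. FAP had 102 and 31.9 normalized reads in LF/LCL against 73.8, 42.0 and 81.6 in SF/SCL. P4HA3, a subunit of the collagen prolyl hydroxylase, and A2M, a broad protease inhibitor of plasma, came next, both at 0.14. For MET the nearest were PCYT1A, an enzyme of phosphatidylcholine synthesis, at 0.03, SELENBP1, a selenium binding protein, at 0.03, and TMLHE, an enzyme of carnitine synthesis, at 0.04, against a median of 0.29. PCYT1A had 320 and 255.5 normalized reads in LF/LCL against 341, 283 and 217 in SF/SCL, the same order of libraries as MET.

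The proteases that can activate HGF comprised 10 genes with HGFAC, of which 8 passed the filter of a mean value over 5. KLKB1 and F11, plasma proteases of the contact system, had 2 reads and 1 read over all libraries and were not tested. With limma 0 of the 8 had an adjusted p under 0.05, and 2 had an unadjusted p under 0.05, both higher in SF/SCL, where 5.86% of all genes were. They were HPN and F2. HPN, hepsin, a protease of the cell surface, had 89.1 and 64.8 normalized reads in LF/LCL against 193, 242.5 and 280.1 in SF/SCL. Every SF/SCL cow was thus above both LF/LCL cows, with a log2 fold change of -1.62 ± 0.26 (SE, 95% interval -2.26 to -0.98) and a limma adjusted p of 0.182. F2, prothrombin, whose active form thrombin can switch on HGFAC, had 802 and 1022 in LF/LCL against 1437, 1677 and 1629 in SF/SCL. Its groups did not overlap either, with a log2 fold change of -0.80 ± 0.14 (SE) and a limma adjusted p of 0.203. Both genes were called by DESeq2 and by the edgeR exact test. SF/SCL lay above LF/LCL without overlap in 15.1% of all genes tested, and HPN and F2 were singled out here by their p. The summed ciliated cell markers were also higher in each SF/SCL library, while the summed hepatocyte markers overlapped between the groups, and the part of either in these values was not tested.

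The other proteases lay closer together. ST14, matriptase, the main epithelial activator of HGF at the cell surface, had 1910 and 1770 normalized reads in LF/LCL against 1609, 1679 and 1358 in SF/SCL, with a log2 fold change of 0.25 ± 0.13 (SE) and a limma adjusted p of 0.503. Its groups did not overlap, which 30.1% of all genes shared. TMPRSS2, another membrane protease, ran from 333 to 669.8 over the libraries, PLAU, urokinase, from 508 to 709, and PLAT, tissue plasminogen activator, from 1497 to 3128. F12, coagulation factor XII, a relative of HGFAC in sequence, ran from 8.59 to 29.1. The groups overlapped in these 4 genes, and their limma adjusted p ran from 0.644 (PLAT) to 0.989 (F12).

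The Kunitz inhibitors that restrain HGFAC, matriptase and hepsin were both well covered. SPINT1 had 1017 and 1278 normalized reads in LF/LCL against 1161, 1247 and 1328 in SF/SCL, with a log2 fold change of -0.12 ± 0.14 (SE) and a limma adjusted p of 0.778. SPINT2 had 15406 and 15441 in LF/LCL against 13355, 14468 and 10779 in SF/SCL, with 0.27 ± 0.15 (SE) and a limma adjusted p of 0.544. Both LF/LCL cows were above the SF/SCL cows for SPINT2 only, a separation that 15% of all genes tested had in that direction. SERPINA5, protein C inhibitor, which also blocks HGFAC, ran from 27.0 to 122 over the libraries, with its lowest value in LF/LCL replicate 1, and had a limma adjusted p of 0.657.

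**Figure D3:**
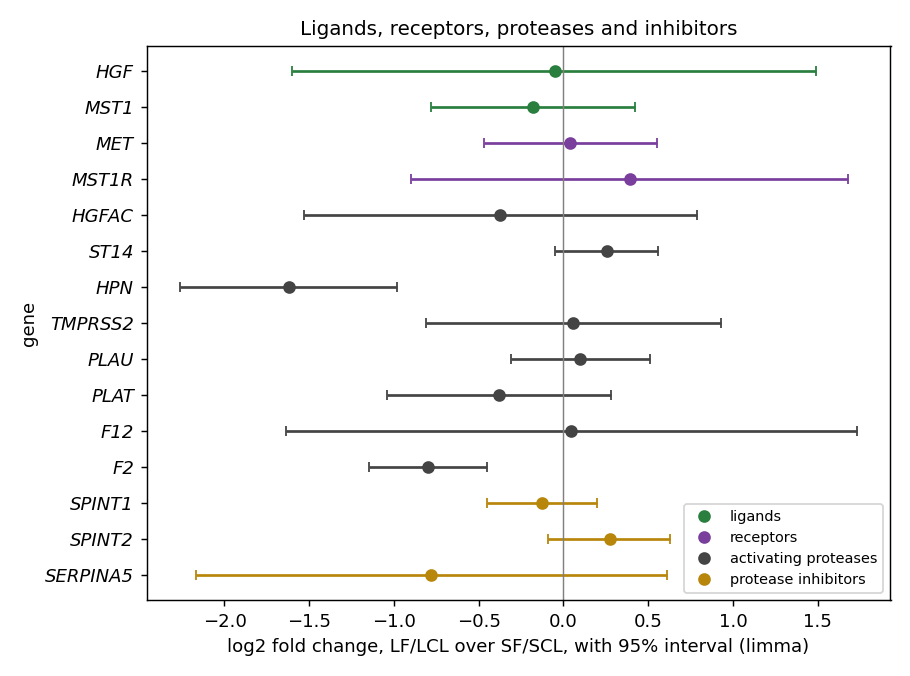
Log2 fold change of LF/LCL over SF/SCL (x axis) with its limma 95% interval for each tested ligand, receptor, activating protease and protease inhibitor (y axis). The intervals of HPN (-2.26 to -0.98) and F2 (-1.15 to -0.45) lie below 0, and those of the 4 members all include 0. The intervals are not adjusted for the number of genes.

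Beyond the members, the pathway lists held 91 genes with those proteases and inhibitors, and 87 of them were tested. With limma 0 had an adjusted p under 0.05 and 10 (11.5%) an unadjusted p under 0.05, the share found among all genes tested. Of these 10, 5 were higher in LF/LCL, where the background was 5.64%, and 5 in SF/SCL, where it was 5.86%. The median log2 fold change of the 87 was 0.06, beside 0.00 over all genes, and the groups did not overlap in 26 (29.9%). DESeq2 called 6 of the 87 (HPN, F2, NRP2, PAK1, SPRY4 and MYC), where it called 2.91% of all genes. The edgeR exact test called 5, the same genes without PAK1, where it called 2.12% of all genes. Both counts were above those shares, and no test of the lists as sets was run. The paper, with DESeq, listed HPN, F2, SPRY4, PAK1 and PLCG1 among its differentially expressed ampulla genes.

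Among 11 co-receptors and membrane partners of MET, 3 (27.3%) had an unadjusted limma p under 0.05, where 11.5% of all genes did. Of these, 2 (18.2%) were higher in LF/LCL, where 5.64% of all genes were. NRP2, a neuropilin that assists growth factor receptors, had 1120 and 526 normalized reads in LF/LCL against 400.3, 238 and 212 in SF/SCL (log2 fold change 1.49 ± 0.41 (SE), limma adjusted p 0.313). CD44, the hyaluronan receptor whose longer splice forms present HGF to MET, had 352 and 308 in LF/LCL against 139, 212 and 217 in SF/SCL (0.82 ± 0.25, adjusted p 0.333). MUC20, a mucin that holds back signalling at the docking site of MET, was higher in SF/SCL, with 293 and 279 against 368, 519 and 437 (-0.61 ± 0.18, adjusted p 0.33). The ranges were apart in each of these 3, which were picked by their p, and in 5 of the 11 genes of the list, where 30.1% of all genes had no overlap. The smooth muscle, proliferation and most immune cell markers were, like NRP2 and CD44, higher in LF/LCL, and the ciliated markers were, like MUC20, higher in SF/SCL. Their part in these values was not tested.

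Among 16 adaptors and proximal signalling proteins only PLCG1, phospholipase C gamma, had an unadjusted p under 0.05 with limma (6.25%, all genes 11.5%). PLCG1 had 1640 and 1419 normalized reads in LF/LCL against 1197, 1154 and 1130 in SF/SCL (log2 fold change 0.39 ± 0.11 (SE), limma adjusted p 0.308). GAB1, the docking protein through which MET chiefly signals, had 1481 ± 300 (SD, n = 2) and 1224 ± 124 (SD, n = 3) and a limma adjusted p of 0.581. GAB1 lay outside the naming rule and was named for its role after its values were seen. Of 18 genes of the RAS-MAPK, AKT and motility branches, 2 (11.1%) had an unadjusted p under 0.05, beside 11.5% of all genes. PAK1, a kinase of cell motility, had 1847 and 1794 in LF/LCL against 1219, 1351 and 1339 in SF/SCL (0.48 ± 0.10, limma adjusted p 0.245). MAPK3, the kinase ERK1, had 1586 and 1418 against 1306, 1131 and 1220 (0.30 ± 0.11, limma adjusted p 0.409). The groups did not overlap in PLCG1, PAK1 or MAPK3, as in 30.1% of all genes, and these 3 were picked by their p. The smooth muscle, proliferation and most immune cell markers were higher in LF/LCL as well, and their part was not tested.

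Of 19 attenuators, genes that restrain or remove MET or the signal below it, 1 (5.26%) had an unadjusted p under 0.05 with limma. The share over all genes was 11.5%. SPRY4, a feedback inhibitor of receptor tyrosine kinase signalling, had 853 and 789 normalized reads in LF/LCL against 1147, 1198 and 1291 in SF/SCL (log2 fold change -0.56 ± 0.11 (SE), limma adjusted p 0.222). Of 12 tested genes described as raised by HGF in epithelial cells, 1 (8.33%) had an unadjusted p under 0.05, against the same 11.5%. MYC, a transcription factor of growth, had 511 and 436 in LF/LCL against 733, 999 and 1510 in SF/SCL (-1.13 ± 0.30, limma adjusted p 0.306). It was higher in each SF/SCL cow, while 8 of the 12 genes had a positive log2 fold change. The groups did not overlap in SPRY4 or MYC, as in 30.1% of all genes, and both were picked by their p.

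**Figure D4:**
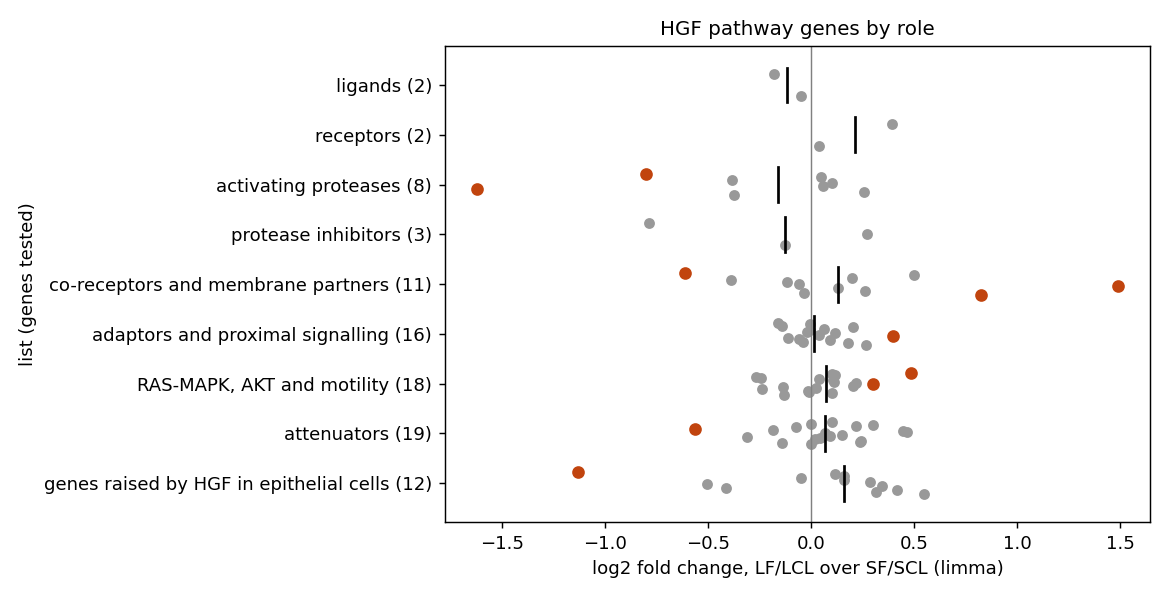
Log2 fold change of LF/LCL over SF/SCL by limma (x axis) for each tested pathway gene, grouped by role (y axis, with the number tested). Points are genes, coloured where the unadjusted p was under 0.05, and black bars are list medians, which run from -0.16 for the activating proteases to 0.22 for the 2 receptors.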

How the data were processed

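The authors made polyA libraries, cleaned the read pairs with seqyClean, aligned them with TopHat2 2.0.8 and Bowtie2 2.1.0 to the masked Bos taurus UMD 3.1 assembly, although the cows were Bos indicus, and counted uniquely mapped reads per Ensembl gene with HTSeq 0.5.4p2. Strand use in counting was not given in the sources used here. The values the authors deposited are a normalized signal, each being the read count over a DESeq 1.12.1 size factor. Every value was a whole multiple of 1 step per library within 0.02, which gave whole reads for 100% of nonzero values and totals of 13418278 to 19592174 reads.

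From the values, limma 3.58.1 (trend and robust) was run on log2(value + 1) for genes with a mean over 5, with no covariates, since the labels give no batch. A fold on this scale understates the change of low genes. DESeq2 1.42.0, edgeR 4.0.16 and voom were run on the recovered reads as alternatives, with other scalings, filters and pseudocounts and with each library left out. The limma, DESeq2, edgeR and voom fits were also run on simulated counts, to check the direction and size of the fitted changes. Those counts had the same variability setting for every gene, so that check does not give the power for the 4 members. The libraries came from different cows. The members and gene lists (9 pathway and 11 marker lists, matched by symbol) were chosen with earlier results of these data known. CDH1 and PTGS2 were matched through E-CADHERIN and PGHS-2, and PECAM1 was not analysed here. Genes named are the 4 members, the other ligands, proteases and inhibitors, up to 2 genes per direction with an unadjusted p under 0.05 in each other pathway list, the 3 genes nearest in profile to HGF and to MET, and the 2 most abundant markers of a list described. No sequences or coordinates are given, as no matching reference was used.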

Additional observations from a re-analysis of the deposited data

How the results depend on the processing

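None of the 4 members passed an adjusted p of 0.05 under any alternative run, and MST1R kept a positive log2 fold change in all 17. The 0 genes called over all became 460 with DESeq2 and 335 with the edgeR exact test on the recovered reads, and 0 in the other 15 alternatives; the cause was not tested. The log2 fold change of HGF, -0.05, turned to 0.123 with DESeq2, 0.121 in the quasi-likelihood fit with TMM, 0.122 in that fit with DESeq size factors and 0.122 with the exact test. Those tools compare mean counts, whose ratio was 1.09, while limma averages logs.

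With 1 library left out, HGF ran from -0.92 to 0.82, with positive values without LF/LCL replicate 2 (0.82), SF/SCL replicate 1 (0.11) and SF/SCL replicate 3 (0.14). MET ran from -0.12 to 0.19, below 0 without LF/LCL replicate 1 (-0.09) and without SF/SCL replicate 3 (-0.12). HGFAC ran from -0.88 to 0.14, above 0 only without LF/LCL replicate 1, and MST1R from 0.16 to 0.73. HGF relative to MET ran from -0.84 to 0.66, above 0 without LF/LCL replicate 2 (0.66) and SF/SCL replicate 3 (0.26). MET relative to epithelial markers, -0.09, ran from -0.24 to 0.10, above 0 without LF/LCL replicate 2 (0.06) and SF/SCL replicate 1 (0.10), and was 0.545 against the ciliated markers. HGF relative to stromal markers was below 0 in all 8 alternatives, from -0.83 to -0.34 with a library left out and at -1.399 against smooth muscle markers, which were higher in LF/LCL. In the runs that kept both LF/LCL libraries, the pathway count of 10 ran from 9 to 11 of 87. Over all genes the same count ran from 1497 to 2013 in those runs. A group left with 1 library was taken to vary like the other.

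No paired analysis was possible because the labels number animals and share no replicate number between the groups. HGF, HGFAC and MST1R rest on 11 to 74 reads a library, so their counting error is wider than that of MET. For HGF the spread between cows of one group was wider still than counting error.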
